A study of Mus musculus with 23 samples.

Results

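Fibrillar collagens form the banded fibres that give connective tissue its tensile strength, and the report follows 7 of their genes, Col1a1, Col1a2, Col3a1, Col5a1, Col5a2, Col5a3 and Col11a1, in mouse quadriceps muscle. The genes were taken by symbol from the 38924 genes counted in every library, and each symbol matched 1 gene. The study sequenced poly(A) RNA from 23 libraries of C57BL/6 mice with less or more Nampt in skeletal muscle, or of differing age. Nampt is the rate-limiting enzyme of NAD salvage from nicotinamide.

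The 6 groups were as follows. Mice with a Nampt deficiency of skeletal muscle, written mNKO, were 7 months old (4 libraries), and so were their wild-type (WT) counterparts (4 libraries). Mice overexpressing Nampt in skeletal muscle (OE) were 24 months old (4 libraries) or 4 months old (3 libraries). WT mice of 24 months (4 libraries) and of 4 months (4 libraries) completed the series. The sample names of the OE mice carry MCK, the muscle creatine kinase promoter, which is active in muscle fibres. The Cre driver of the mNKO mice and the sex of the animals are not given in the sources used here. All mice ate chow and some took glucose and exercise tolerance tests before tissue was collected. RNA was purified with miRNeasy at 7 months and with Trizol at 4 and 24 months. Each library carries another animal number and was treated as an independent replicate.

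A fibrillar collagen is made as a procollagen of 3 chains wound into a triple helix. Chains are hydroxylated and folded in the endoplasmic reticulum, secreted, trimmed of their propeptides, assembled into fibrils and cross-linked. In muscle these proteins lie in the connective tissue sheaths around fibres and bundles, and are made mainly by fibroblasts, fibro-adipogenic progenitors and tenocytes rather than by the fibres. Type I collagen, from Col1a1 and Col1a2, is the main tensile component. Type III collagen, from Col3a1, is found beside it in compliant tissue. Type V chains, from Col5a1, Col5a2 and Col5a3, sit inside type I fibrils and set their start and width, and Col11a1 encodes a chain of type XI collagen, best known from cartilage.

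The genes lie on 6 chromosomes of build GRCm38. Col1a1 occupies chr11:94936224-94953042 on the plus strand, Col1a2 chr6:4504814-4541544 (plus), Col5a1 chr2:27886425-28039514 (plus), Col5a3 chr9:20770050-20815067 (minus) and Col11a1 chr3:114030540-114220718 (plus). Col3a1 at chr1:45311538-45349706 (plus) and Col5a2 at chr1:45374321-45503282 (minus) are neighbours that point toward each other. In Col3a1, 1.44% of exon bases are shared with another annotated gene, and in Col5a1 2.5% with antisense transcripts; no source used here gives library strandedness, and such reads cannot be told apart.

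Promoter sequences were available from RefSeq (GRCm38.p6) for 5 of the 7 genes. The 250 bases before the RefSeq start are printed for 1 chain of each of types I, III and V, because all 3 genes had log2 fold changes above 0 in the mNKO comparison and below 0 in both ageing comparisons while their promoters differ in make-up. Capitals mark the CCAAT box, the GC box GGGCGG and the TATA sequence TATAAA on either strand, where CCGCCC is GGGCGG on the other strand, and each sequence runs along the strand of its gene. The windows are chr6:4505368-4505617 (plus), chr1:45311288-45311537 (plus) and chr9:20815068-20815317 (minus). The RefSeq start of Col1a2 lies inside the longer span that the authors' annotation gives the gene.
Col1a2: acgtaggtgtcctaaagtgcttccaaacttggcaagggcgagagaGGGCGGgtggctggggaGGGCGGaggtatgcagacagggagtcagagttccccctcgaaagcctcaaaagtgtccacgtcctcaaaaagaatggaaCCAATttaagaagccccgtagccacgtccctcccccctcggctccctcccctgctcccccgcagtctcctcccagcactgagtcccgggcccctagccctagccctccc
Col3a1: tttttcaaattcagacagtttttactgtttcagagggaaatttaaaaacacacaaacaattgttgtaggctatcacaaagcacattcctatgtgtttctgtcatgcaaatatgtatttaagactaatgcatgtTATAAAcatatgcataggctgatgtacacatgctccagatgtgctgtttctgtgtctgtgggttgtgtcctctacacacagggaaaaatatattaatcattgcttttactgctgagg
Col5a3: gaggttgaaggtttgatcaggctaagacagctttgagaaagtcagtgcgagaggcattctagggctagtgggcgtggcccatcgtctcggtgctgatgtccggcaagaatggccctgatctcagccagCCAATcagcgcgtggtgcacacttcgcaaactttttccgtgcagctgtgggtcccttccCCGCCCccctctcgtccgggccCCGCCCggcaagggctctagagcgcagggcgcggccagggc

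The Col3a1 window was AT-rich, with 35.2% G or C, and held 1 TATAAA, 117 to 112 bases before the start, and neither other motif. The windows of Col1a2 (62% G or C), Col5a3 (62.8%), Col11a1 (62.4%) and Col5a1 (76.4%) each held GGGCGG at 2 places, and CCAAT occurred once in those of Col1a2, Col5a3 and Col11a1. Among all 32851 promoter windows of this length, 33.8% held CCAAT, 32.7% GGGCGG and 12.4% TATAAA, and the median G or C content was 52.4%. Whether any factor bound these letters was not measured.

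Depth on genes was 14900674 to 22755930 counts per library at 7 months but 2032544 to 3443762 counts at the other ages, so values at 7 months rest on far more counts. The 4-month libraries (2032544 to 3443762 counts) and the 24-month libraries (2316325 to 3266645 counts) overlapped in depth. At 7 months each of the 6 genes other than Col11a1 had 273 to 39139 counts per library. At 4 and 24 months the same 6 genes had 5 to 261 counts per library. Levels are given as CPM, the read count of a gene scaled to the total of its library after TMM correction. Nampt itself had 12.5 to 23.3 CPM in mNKO libraries, against 102 to 127 CPM in WT at 7 months. It had 4107 to 9533 CPM in OE libraries at 24 months and 4441 to 5705 CPM at 4 months, against 189 to 219 CPM and 203 to 253 CPM in WT of those ages, so every library matched the genotype of its label. Nampt levels overlapped between the ages and so do not check the age labels.

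The 6 fibrillar collagen genes other than Col11a1 rose in Nampt-deficient muscle, with no overlap between the 4 mNKO and the 4 WT libraries for any of them. Col11a1 was called higher too, but it passed the filter on low counts only through the mNKO libraries and is described apart. Together the 7 genes took 0.246 to 0.554% of all counts on genes in mNKO libraries, against 0.0265 to 0.0498% in WT libraries at 7 months. The background was wide: 28.6% of the 13140 genes tested rose in mNKO muscle (53.1% changed in either direction), and 27% had every mNKO library above every WT library. The median log2 fold change of the 6 genes was 2.80 (2.62 with Col11a1), against 0.01 over all genes. With plain library totals in place of scaled ones the median of all genes was 0.538 on the log2 scale, against 0.014. The split of calls was then 6779 higher and 927 lower, against 3759 and 3215, and the 7 genes kept their direction and their calls. In bulk tissue, more cells that express a gene and more RNA per cell cannot be told apart.

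Col1a1 had the largest log2 fold change of the set and Col1a2 one close to that of Col3a1. Col1a1, the gene of the alpha-1 chain, had 743, 436, 457 and 1150 CPM in mNKO replicates 1 to 4, against 65.2, 55.2, 59.9 and 97.9 CPM in WT replicates 1 to 4. Col1a2, the gene of the alpha-2 chain, had 696, 502, 547 and 1076 CPM in mNKO libraries, against 75.1, 73.5, 82.5 and 127 CPM in WT libraries. For both genes mNKO replicate 4 and WT replicate 4 were the highest of their groups, and the lowest mNKO library was still several times the highest WT library. The log2 fold change was 3.32 (SE 0.35) for Col1a1 and 2.98 (SE 0.28) for Col1a2, with adjusted p = 4.68e-05 and 2.19e-05 by edgeR's quasi-likelihood test with Benjamini-Hochberg adjustment.

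Col3a1, the only chain of type III collagen, was the most abundant of the set by CPM per kilobase of its principal transcript. It had 1590, 1017, 1121 and 1951 CPM in mNKO libraries, against 169, 158, 159 and 228 CPM in WT libraries. Again both replicates 4 were the highest of their groups and the groups stood far apart. Its log2 fold change was 2.99 (SE 0.24, edgeR adjusted p = 9.01e-06), a 7.96-fold difference.

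The type V genes rose too, with smaller log2 fold changes. Col5a1, the gene of the alpha-1(V) chain that starts fibril assembly, had 126, 92.5, 103 and 175 CPM in mNKO libraries, against 27, 19.6, 22.4 and 29.1 CPM in WT libraries. Col5a2, the gene of its usual partner chain, had 167, 98.1, 131 and 158 CPM in mNKO libraries, against 24.1, 16, 20.8 and 28.9 CPM in WT libraries. Col5a3, the gene of another type V chain with a narrower tissue distribution, had 91.9, 70.4, 79 and 127 CPM in mNKO libraries, against 37.2, 30.3, 24.1 and 34.8 CPM in WT libraries. Col5a2 was the only gene of these 3 whose highest mNKO value came from replicate 1, and for Col5a3 the highest WT value came from replicate 1. The log2 fold changes were 2.34 (SE 0.21, adjusted p = 1.62e-05) for Col5a1, 2.62 (SE 0.22, adjusted p = 1.06e-05) for Col5a2 and 1.54 (SE 0.20, adjusted p = 9.85e-05) for Col5a3 by edgeR with Benjamini-Hochberg adjustment.

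Col11a1 was scarce in every group. It had 36, 34, 76 and 15 counts (1.47, 2.06, 3.12 and 0.748 CPM) in mNKO libraries, against 2, 7, 1 and 12 counts (0.114, 0.409, 0.0565 and 0.72 CPM) in WT libraries. The lowest mNKO library, replicate 4, barely exceeded the highest WT library, also replicate 4. The log2 fold change was 2.51 (SE 0.63, edgeR adjusted p = 0.00633), and a stricter filter on low counts removed the gene. It was not tested at 4 and 24 months, where it had 1 count over the OE libraries of 24 months, 3 over those of 4 months, 0 over the WT libraries of 24 months and 2 over those of 4 months. A count of 0 in 11520545 counts allows a level of up to 0.26 CPM, unscaled, in WT muscle at 24 months, for counting error only.

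**Figure D1:**
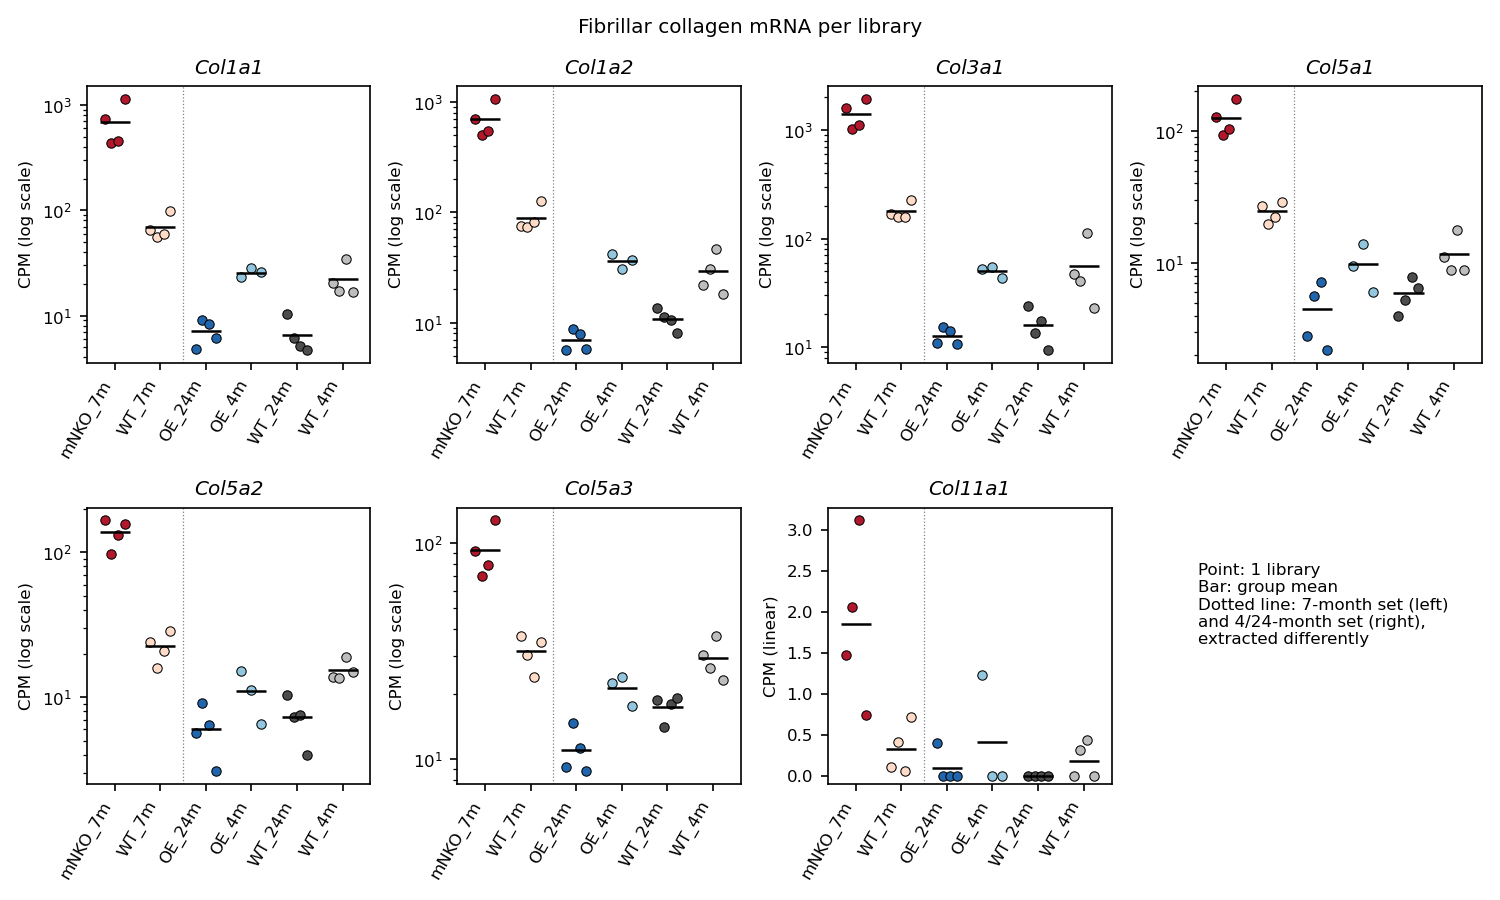
Level of each fibrillar collagen gene in CPM (log axis, except linear for Col11a1) for every library, by group, with the group mean as a bar; the dotted line separates the 7-month set from the 4- and 24-month set, which differ in RNA extraction and depth. For Col1a1 the mNKO libraries sit at 436 to 1150 CPM and WT at 55.2 to 97.9 CPM, and the 24-month libraries sit below the 4-month libraries in both genotypes.

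The same genes had lower levels at the older age, by smaller factors. In WT muscle, 2 of the 6 genes tested, Col1a1 and Col1a2, were lower at 24 than at 4 months and none was higher, where 0.0875% of the 9144 genes tested (8 genes) fell, 0.0656% rose and 0.153% (14 genes) changed in either direction. All 6 had negative log2 fold changes, with a median of -1.26 against 0.00 over all genes. All 6 also had an unadjusted p below 0.05, as did 8.54% of all genes, and for 5 of them every 24-month library lay below every 4-month library, as did 2.81% of all genes. By edgeR's p, Col1a1 ranked 1 and Col1a2 ranked 3 of the 9144 genes. With plain library totals 14 genes rose and 5 fell, against 6 and 8, with the median of all genes at 0.112, and the 6 genes kept their direction.

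Col1a1 had 10.3, 6.17, 5.11 and 4.71 CPM in WT replicates 1 to 4 of 24 months, against 20.5, 17.2, 34.6 and 16.6 CPM in WT replicates of 4 months. Col1a2 had 13.5, 11.2, 10.5 and 7.97 CPM at 24 months, against 22.1, 30.5, 46.3 and 18.2 CPM at 4 months. The age groups did not overlap for either gene, and replicate 3 was the highest 4-month library for both. The log2 fold change was -1.77 (SE 0.26, adjusted p = 0.00618) for Col1a1 and -1.45 (SE 0.24, adjusted p = 0.011) for Col1a2 by edgeR with Benjamini-Hochberg adjustment. Without WT replicate 2 of 4 months the adjusted p of Col1a2 was 0.0514, without WT replicate 2 of 24 months it was 0.055, and with all 23 libraries in 1 fit it was 0.12 for both genes.

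Col3a1 had 23.9, 13.5, 17.4 and 9.42 CPM in WT muscle at 24 months, against 47.1, 41, 113 and 22.8 CPM at 4 months. The 4-month values spread widely, and the lowest of them, replicate 4, fell just under the highest 24-month value, replicate 1. The log2 fold change of -1.81 (SE 0.42, edgeR adjusted p = 0.152) did not pass the threshold and ranked 3 from the lowest of all 9144 genes. It was -1.23 without WT replicate 3 of 4 months (adjusted p = 0.0623) and -2.05 without WT replicate 4 of 4 months (adjusted p = 0.0479), and DESeq2 gave an adjusted p of 0.000357.

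The type V genes had smaller log2 fold changes with age, and none passed the threshold in WT muscle. Col5a1 had 3.98, 5.28, 7.81 and 6.52 CPM at 24 months, against 11.1, 8.9, 17.7 and 8.82 CPM at 4 months. Col5a2 had 10.3, 7.34, 7.51 and 3.99 CPM at 24 months, against 13.9, 13.7, 19 and 15 CPM at 4 months. Col5a3 had 18.7, 14.1, 18 and 19.2 CPM at 24 months, against 30.3, 26.4, 37.2 and 23.3 CPM at 4 months. The age groups did not overlap for any of these 3 genes. Their log2 fold changes were -0.95 (SE 0.31, adjusted p = 0.306), -1.07 (SE 0.27, adjusted p = 0.132) and -0.75 (SE 0.18, adjusted p = 0.0907) by edgeR, in the order Col5a1, Col5a2, Col5a3.

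The authors' deposited table for this comparison listed all 6 genes as lower at 24 months with adjusted p below 0.05, among 248 of 11878 genes (2.09%) below that threshold. For Col1a1 the authors' deposited table gave a log2 fold change of -1.75 (SE 0.24, adjusted p = 1.13e-09), and for Col5a3 the authors' deposited table gave -0.54 (SE 0.16, adjusted p = 0.0332). The mean normalised counts of the authors' deposited tables at 4 and 24 months were a median of 4.62 times those computed from the deposited count files (6801 genes), against 1 time at 7 months. Whether the tables of the ageing set rest on further counts or on another scaling was not tested.

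In OE muscle, 3 of the 6 genes tested, Col1a1, Col1a2 and Col5a3, fell with age and none rose, where 0.416% of all genes fell and 0.317% rose (0.733% in all). Col1a1 had 4.83, 9.15, 8.31 and 6.16 CPM in OE replicates 1 to 4 of 24 months, against 23, 28.2 and 25.7 CPM in OE replicates 1 to 3 of 4 months. Col1a2 had 5.64, 8.71, 7.93 and 5.72 CPM at 24 months, against 41.9, 30.4 and 37.3 CPM at 4 months. For both type I genes the lowest 4-month library stood far above the highest 24-month library. The log2 fold change was -1.85 (SE 0.28, adjusted p = 0.00118) for Col1a1 and -2.37 (SE 0.27, adjusted p = 5.91e-05) for Col1a2 by edgeR, which ranked Col1a2 1 of 9144 genes by p.

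Col5a3 had 9.26, 14.8, 11.3 and 8.8 CPM in OE muscle at 24 months, against 22.6, 24 and 17.7 CPM at 4 months (log2 fold change -0.97, SE 0.21, edgeR adjusted p = 0.0242). Those libraries did not overlap, but the call was lost in 5 of the 7 fits that left out 1 OE library, without replicates 1 and 2 of 4 months and replicates 1, 3 and 4 of 24 months, where the adjusted p reached 0.225, and with all 23 libraries in 1 fit (adjusted p = 0.0678). Col3a1 had 10.9, 15.2, 14 and 10.6 CPM at 24 months, against 52.5, 55 and 43.4 CPM at 4 months. Although these groups were far apart, its log2 fold change of -1.99 (SE 0.46) had an adjusted p of 0.0816 by edgeR, against 0.000181 by DESeq2 and 0.0189 by limma-voom. Col5a1 (log2 fold change -1.17, SE 0.37, edgeR adjusted p = 0.156) and Col5a2 (-0.88, SE 0.32, edgeR adjusted p = 0.253) had libraries that overlapped between the ages. For 4 of the 6 genes every 24-month library was below every 4-month library, as for 5.24% of all genes (5.09% were wholly above), and the authors' deposited table listed all 6 below the threshold among 426 of 11878 genes (3.59%).

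**Figure D2:**
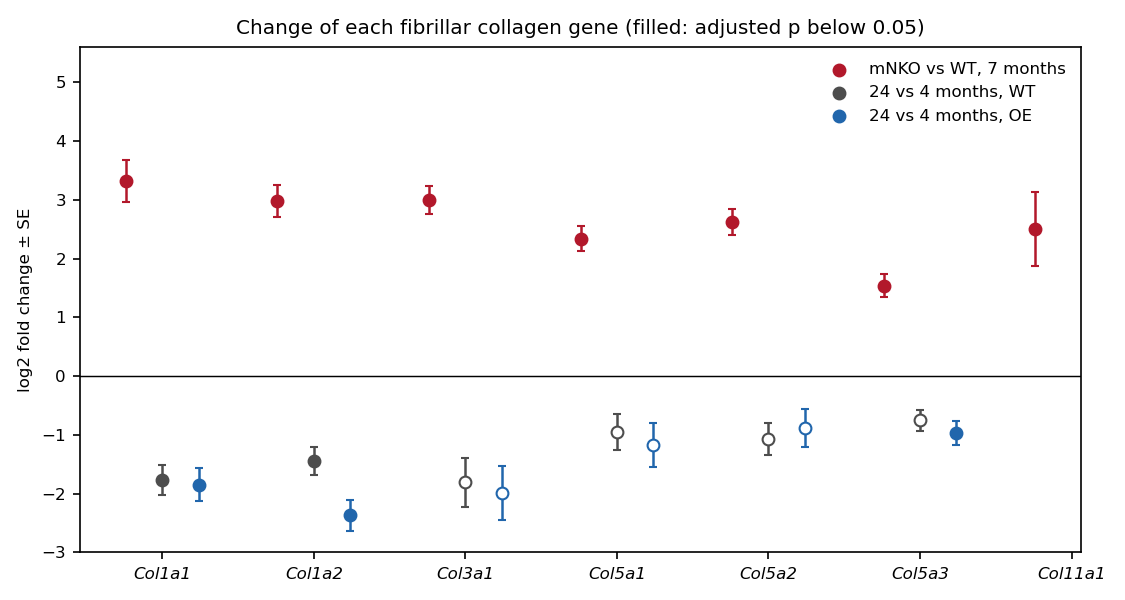
Log2 fold change with its standard error for each fibrillar collagen gene in mNKO against WT at 7 months, in WT at 24 against 4 months, and in OE at 24 against 4 months (edgeR; filled points have adjusted p below 0.05). All 7 points of the mNKO comparison lie at 1.54 or above, and the 6 points of each ageing comparison lie at -0.75 or below.

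Overexpression of Nampt changed none of these genes detectably at either age. By edgeR 0 of 6 passed the threshold at 4 months and 0 of 6 at 24 months, where 0.0109% of all genes (1 gene) passed at each age, and DESeq2 and limma-voom also called 0. At an unadjusted p below 0.05 there was 1 gene of the 6 at 4 months, as for 4.82% of all genes, and 2 at 24 months, as for 7.34%. Col1a1 averaged 25.6 ± 2.6 CPM in OE muscle at 4 months (SD, n = 3) and 22.2 ± 8.44 CPM in WT (SD, n = 4), and at 24 months 7.11 ± 1.97 CPM in OE and 6.58 ± 2.58 CPM in WT (SD, n = 4 each). Col5a3 was lower at both ages but overlapped: 21.4 ± 3.31 CPM in OE at 4 months (SD, n = 3) against 29.3 ± 5.98 CPM in WT (SD, n = 4), and 11.1 ± 2.74 CPM in OE at 24 months against 17.5 ± 2.33 CPM in WT (SD, n = 4 each). Its log2 fold changes were -0.44 (SE 0.19, edgeR adjusted p = 0.959) at 4 months and -0.66 (SE 0.20, edgeR adjusted p = 0.543) at 24 months.

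The ageing effect was not shown to differ between genotypes. The difference of the OE and WT ageing effects passed the threshold for 0 of the 6 genes and 0% of all genes by edgeR, and for 0 of the 6 by DESeq2 and limma-voom. An unadjusted edgeR p below 0.05 was reached by 1 gene of the 6 and by 5.45% of all genes. That gene was Col1a2, whose fall was larger in OE by -0.92 (SE 0.37) on the log2 scale, with an unadjusted p of 0.0214 and an edgeR adjusted p of 0.868. The other 5 differences lay between -0.22 and 0.20. The 2 ageing comparisons share no libraries, while each comparison of OE with WT uses libraries that an ageing comparison also uses.

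Nampt loss and ageing were contrasted directly in 1 fit of all 23 libraries, as the mNKO effect at 7 months minus the WT effect of age. The difference was above 0 and past the threshold for all 6 genes that could be tested, where 17% of the 11129 genes were higher and 33.3% differed in either direction (1888 higher and 1817 lower, or 2932 and 691 with plain library totals). It was 5.16 (SE 0.47, adjusted p = 1.54e-07) for Col1a1, 4.49 (SE 0.39, adjusted p = 5.4e-08) for Col1a2 and 4.86 (SE 0.50, adjusted p = 8.26e-07) for Col3a1 on the log2 scale by edgeR. It was 3.35 (SE 0.41) for Col5a1, 3.76 (SE 0.36) for Col5a2 and 2.35 (SE 0.27) for Col5a3, with edgeR adjusted p of at most 2.03e-06. No library served both effects, and all 6 calls held in every alternative that was run. A large mNKO effect can carry this contrast past the threshold without any change with age, so it does not by itself show a fall with age. For WT age alone, the same fit of all 23 libraries called 0 genes. The adjusted p of the 6 genes was then 0.12 to 0.445 by edgeR.

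The genes with the steepest rise in mNKO muscle also had the lowest values with age in WT muscle. Across the 6 genes the log2 fold changes of the 2 comparisons had a Pearson r of -0.90 and a Spearman rho of -0.94, against -0.10 and -0.06 across the 9130 genes tested in both. With ageing in OE muscle the values across the 6 genes were -0.72 and -0.60. These are descriptions over few genes that were measured in the same libraries, and genes are not independent replicates. Of the 8 genes that fell with age in WT muscle, 2 (25%) were among the 1743 genes tested in both sets that rose in mNKO muscle (0.115% of those), and these 2 were Col1a1 and Col1a2. Of all 9130 genes tested in both sets 19.1% rose in mNKO muscle, so a share of 25% among 8 genes is near the background. Of the 38 genes that fell with age in OE muscle, 13 (34.2%) rose in mNKO muscle. These 13 included Col1a1, Col1a2 and Col5a3, and the overlap was not tested.

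The make-up of the fibrillar collagen mRNA was described by type. Per kilobase of principal transcript, type V chains made up 8.05 to 10.5% of the summed level of the 7 genes in mNKO libraries, against 14.2 to 18.9% in WT libraries at 7 months. They made up 35.1 to 43.1% in OE libraries at 24 months, against 19.4 to 26.3% at 4 months, and 37.3 to 53.2% in WT libraries at 24 months, against 24.1 to 40.9% at 4 months. The mNKO and WT libraries did not overlap, nor did the 2 ages in OE, while the ages overlapped in WT. Col5a3 carried most of this: it was 2.52 to 3.03% of the sum in mNKO libraries, against 5.99 to 8.89% in WT libraries at 7 months, and 22.4 to 36.9% in WT libraries at 24 months, against 13.2 to 21.9% at 4 months. Type III stayed at 43.2 to 47.9% in mNKO libraries, against 43.2 to 46.4% in WT libraries at 7 months. These shares were not tested, and with exon unions in place of principal transcripts the type V share was 10.8 to 14% in mNKO libraries, against 19.3 to 25.2% in WT libraries.

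**Figure D3:**
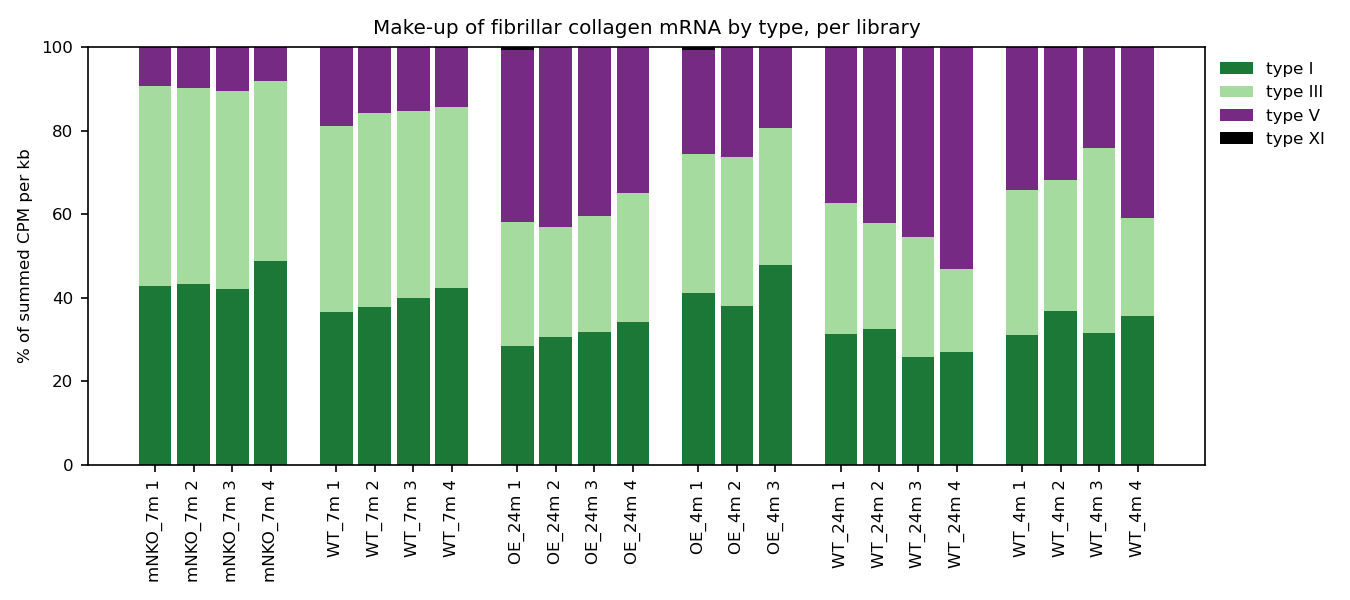
Share of the summed CPM per kilobase of the 7 genes that belongs to type I, type III, type V and type XI genes, 1 stacked bar per library, grouped as mNKO and WT at 7 months, OE at 24 and 4 months, and WT at 24 and 4 months. The type V part is smallest in mNKO libraries (8.05 to 10.5%) and reaches 53.2% in a WT library of 24 months.

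Ratios of pairs of genes within a library, which do not depend on scaling, were tested for 3 pairs in 5 comparisons with exact two-sided permutation tests. None of the 15 passed after Benjamini-Hochberg adjustment, the smallest adjusted p being 0.143, and the smallest unadjusted p that these group sizes allow is 0.0286. The mean log2 ratio of Col5a1 to Col1a1 was -2.42 ± 0.26 in mNKO and -1.48 ± 0.20 in WT at 7 months (SD, n = 4 each; exact permutation p = 0.0286, adjusted 0.143), with no overlap. The log2 ratio of Col1a1 to Col1a2 was -0.07 ± 0.19 in mNKO and -0.36 ± 0.11 in WT at 7 months (SD, n = 4 each; exact permutation p = 0.0857, adjusted 0.184). At 24 months that ratio was 0.01 ± 0.15 in OE and -0.76 ± 0.28 in WT (SD, n = 4 each; exact permutation p = 0.0286, adjusted 0.143), again with no overlap. At 4 months the ratio of Col5a1 to Col1a1 was -1.47 ± 0.55 in OE (SD, n = 3) and -0.93 ± 0.03 in WT (SD, n = 4; exact permutation p = 0.0286, adjusted 0.143), also with no overlap.

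The order of levels was the same for most of the set. Within the 7-month set mNKO exceeded WT for every gene. Within the 4- and 24-month set both 4-month groups exceeded both 24-month groups in mean CPM for the 6 genes tested, and the libraries of OE and WT of the same age overlapped for every gene; of all genes 2.7% were wholly above and 2.59% wholly below at 4 months, and 2.36% and 2.33% at 24 months. Per kilobase of principal transcript, Col3a1 was highest at 7 months, at 255 CPM in mNKO and 32.1 CPM in WT, and still led in WT at 24 months with 2.89 CPM, where Col5a3 followed with 2.86 CPM, a gap far below the spread. With exon unions in place of principal transcripts Col5a3 exceeded Col3a1 at 24 months, with 2.57 against 1.64 CPM in WT and 1.62 against 1.29 CPM in OE. WT muscle at 7 months had higher mean CPM than WT at 4 months for all 6, for instance 178 ± 33.4 and 55.9 ± 39.3 CPM of Col3a1 (SD, n = 4 each), but age cannot be told apart from extraction and depth between these sets.

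The 6 genes varied together from library to library. Their pairwise Pearson r of log2 CPM was at least 0.96 (median 0.99) over the 8 libraries at 7 months and 0.73 to 0.95 over the 15 libraries at 4 and 24 months, and with group means subtracted it was 0.49 to 0.85 over all 23. By likeness to their mean, the nearest of 11482 genes at 7 months included Vat1, Cul7, Col14a1, Col6a1, Col16a1 and Loxl1, each with r above 0.99, where the difference between the groups dominates. At 4 and 24 months the nearest was Pecam1, an endothelial adhesion molecule (r = 0.92), followed by Col6a2 (0.92), Col6a1 (0.91), Tet3 (0.91) and Cdh5, endothelial cadherin (0.89). With group means subtracted, C1qa led (0.84), with Vat1 (0.84), Lipa (0.82), and Igfbp4, C1qc, Lrp1 and Lyz2 (0.81 each). C1qb (0.80), Loxl1 and Bgn (0.79 each) completed the nearest 10. Of these, C1qa, C1qb, C1qc and Lyz2 are expressed by macrophages, while Loxl1 and Bgn belong to the lists of collagen biology described below.

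Other genes of collagen biology, in 13 lists of 128 genes, mostly rose in mNKO muscle. In mNKO muscle 76 of the 112 tested rose and 6 fell, against 28.6% and 24.5% of all genes, with a median log2 fold change of 1.34. With age in WT muscle 0 of 65 passed (median -0.28), where only 0.153% of all genes passed, so the count says little about these lists. With age in OE muscle 0 rose and 4 fell, where 0.416% of all genes fell. In the direct contrast of Nampt loss with ageing, 60 of 99 were higher and 2 lower, against 17% and 16.3% of all genes.

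Genes that modify and fold the chains come first in the path of synthesis. In mNKO muscle 15 of its 20 tested genes rose and 1 fell, with a median of 1.06, also with P4ha3 at its bound. Crtap, part of the prolyl 3-hydroxylation complex, rose by 1.88 (SE 0.15, adjusted p = 8.25e-06), Plod2, a lysyl hydroxylase of telopeptides, by 2.61 (SE 0.23, adjusted p = 1.25e-05), Ppib, a prolyl isomerase, by 1.74 (SE 0.16, adjusted p = 1.42e-05), and Serpinh1, the collagen chaperone HSP47, by 2.10 (SE 0.19, adjusted p = 1.52e-05) on the log2 scale by edgeR. P4ha3, a prolyl 4-hydroxylase subunit, had 164 counts over the mNKO libraries and 0 over the WT libraries. Against a floor of 3 counts over the WT group and by plain library totals, without TMM, it was at least 64.2-fold higher. Plain totals shift values toward mNKO, with a median log2 fold change of all genes of 0.538, against 0.014 with TMM. P4ha3 passed the filter on low counts only through the mNKO libraries. Mia3, a secretion factor for large procollagens, had 70.9 ± 11.5 CPM in mNKO and 118 ± 15.7 CPM in WT (SD, n = 4 each) and fell by 0.74 (SE 0.15, edgeR adjusted p = 0.00176). P4ha3 and Mia3 were singled out after their values were seen.

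With age in WT muscle the same list had a median log2 fold change of 0.11 over 12 genes, 3 of them below 0, and 0 passed. P4hb, the shared subunit of prolyl 4-hydroxylase, had 159 ± 6.67 CPM at 24 months and 123 ± 5.83 CPM at 4 months (SD, n = 4 each; log2 fold change 0.38, edgeR adjusted p = 0.211), and Serpinh1 had 8.47 ± 0.586 CPM at 24 months and 12.7 ± 3.96 CPM at 4 months (SD, n = 4 each; -0.60, edgeR adjusted p = 0.496). These values stand beside the negative values of all 6 collagen genes in the same libraries.

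Propeptide removal and cross-linking followed the collagens in direction. In mNKO muscle 4 of 6 genes of propeptide removal rose, among them Adamts14, an N-propeptide protease (2.69, SE 0.29, adjusted p = 3.2e-05), and Bmp1, the C-proteinase (1.34, SE 0.15, adjusted p = 4.78e-05, log2 scale, edgeR). All 5 cross-linking genes rose, led by the lysyl oxidases Loxl1 (2.28, SE 0.22, adjusted p = 2.28e-05) and Loxl3 (2.03, SE 0.23, adjusted p = 4.4e-05). With age in WT muscle all 4 and all 3 tested genes of these lists had values below 0 and 0 passed: Pcolce, an enhancer of that proteinase, had -1.01 (SE 0.31, edgeR adjusted p = 0.273) and Lox, the founding lysyl oxidase, -0.61 (SE 0.37, edgeR adjusted p = 0.721).

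Proteins that bind fibrils and regulate their spacing behaved likewise. In mNKO muscle 14 of 16 rose and 0 fell, with a median of 1.84. Comp, a pentameric glycoprotein of tendon and cartilage, had 32.9 ± 9.05 CPM in mNKO and 0.9 ± 0.279 CPM in WT (SD, n = 4 each; log2 fold change 5.18, SE 0.28, edgeR adjusted p = 1.26e-06), and Bgn, the proteoglycan biglycan, 659 ± 238 CPM in mNKO and 46.5 ± 15.1 CPM in WT (SD, n = 4 each; 3.82, SE 0.32, edgeR adjusted p = 1.52e-05). With age in WT muscle 12 of 12 had values below 0 and 0 passed, where the median log2 fold change of all genes was 0.00. Sparc, a collagen-binding matricellular protein, was nearest, with 61.4 ± 3.84 CPM at 24 months and 95 ± 14.5 CPM at 4 months (SD, n = 4 each; -0.63, SE 0.14, edgeR adjusted p = 0.0795).

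Among the non-fibrillar collagens, collagen VI, the microfibrillar collagen around muscle fibres, had a like pattern of signs. In mNKO muscle 4 of 5 of its genes rose, with Col6a3 at 2.50 (SE 0.20, adjusted p = 9.23e-06) and Col6a1 at 2.33 (SE 0.20, adjusted p = 1.25e-05, log2 scale, edgeR). With age its 3 tested genes had -0.81 to -1.02 in WT muscle with 0 passing, and in OE muscle all 3 fell: Col6a1 by 1.48 (SE 0.27, adjusted p = 0.0084), Col6a2 by 1.58 (SE 0.31, adjusted p = 0.0121) and Col6a3 by 1.55 (SE 0.34, adjusted p = 0.0242, log2 scale, edgeR). The remaining fall in OE muscle was Col15a1, of the basement membrane zone (-1.70, SE 0.39, edgeR adjusted p = 0.0339).

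The collagens were not a uniform block in mNKO muscle. Of 9 basement membrane collagens 4 rose, with Col4a1 at 1.53 (SE 0.15, adjusted p = 1.98e-05), and 3 fell, with Col4a3 at -1.85 (SE 0.32, adjusted p = 0.000571, log2 scale, edgeR). Of 6 fibril-associated collagens 3 rose, with Col14a1 at 3.80 (SE 0.31, adjusted p = 1.32e-05), while Col9a1, a cartilage collagen, fell (edgeR adjusted p = 7.14e-05). It had 2 counts over the mNKO libraries, against 74 over the WT libraries, a ratio of 0.0317 per count sequenced (exact 95% interval 0.00377 to 0.119, counting error only), and it passed the filter on low counts only through the WT libraries. Of 6 network and transmembrane collagens 5 rose, led by Col8a1 (3.93, SE 0.22, edgeR adjusted p = 1.2e-06). Of the 3 tested other fibrillar collagens only Col27a1 rose (1.85, SE 0.21, edgeR adjusted p = 4.74e-05), and Col24a1 (-0.20, edgeR adjusted p = 0.812) and Col11a2 (0.03, edgeR adjusted p = 0.941) did not pass.

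Genes for breaking collagen down rose in the same mNKO libraries. Of 7 in the list 5 rose and 0 fell: Mmp3, stromelysin, had 30.6 ± 9.6 CPM in mNKO and 0.464 ± 0.247 CPM in WT (SD, n = 4 each; log2 fold change 6.02, SE 0.37, edgeR adjusted p = 3.08e-06), and Mmp2, a gelatinase, 183 ± 25.2 CPM in mNKO and 35.9 ± 9.9 CPM in WT (SD, n = 4 each; 2.35, SE 0.20, edgeR adjusted p = 1.04e-05). Mmp3 passed the filter on low counts only through the mNKO libraries. Among 6 protease inhibitors 3 rose, led by Timp1 (6.17, SE 0.40, adjusted p = 5.93e-06). Of 8 collagen receptors 6 rose, including Mrc2, an endocytic collagen receptor (2.30, SE 0.24, adjusted p = 2.95e-05), and of 15 genes of TGF-beta signalling, the chief inducer of collagen transcription, 7 rose and 1 fell. Its target Ctgf rose by 3.04 (SE 0.20, adjusted p = 3.08e-06) and the ligand gene Tgfb1 by 2.50 (SE 0.29, adjusted p = 6.91e-05, log2 scale, edgeR), while with age in WT muscle the list had a median of -0.00 and 0 of 12 passed. Tgfb2, another ligand gene, was first by p in the TGF-beta list with age in WT, at 0.92 (SE 0.24, edgeR adjusted p = 0.132). Every 24-month library lay above every 4-month library for Tgfb2, as for 2.59% of all genes. Of the degradation genes tested with age in WT, Mmp2 had -0.97 (edgeR adjusted p = 0.276), Mmp14 -0.91 (0.306) and Pepd 0.28 (0.855). Itga11, the collagen-binding integrin alpha-11, had the lowest value of all the lists with age in WT, -2.17 (SE 0.48, edgeR adjusted p = 0.0719). It rests on few reads, with 0.885 ± 0.724 CPM at 24 months and 4.26 ± 1.26 CPM at 4 months (SD, n = 4 each).

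**Figure D4:**
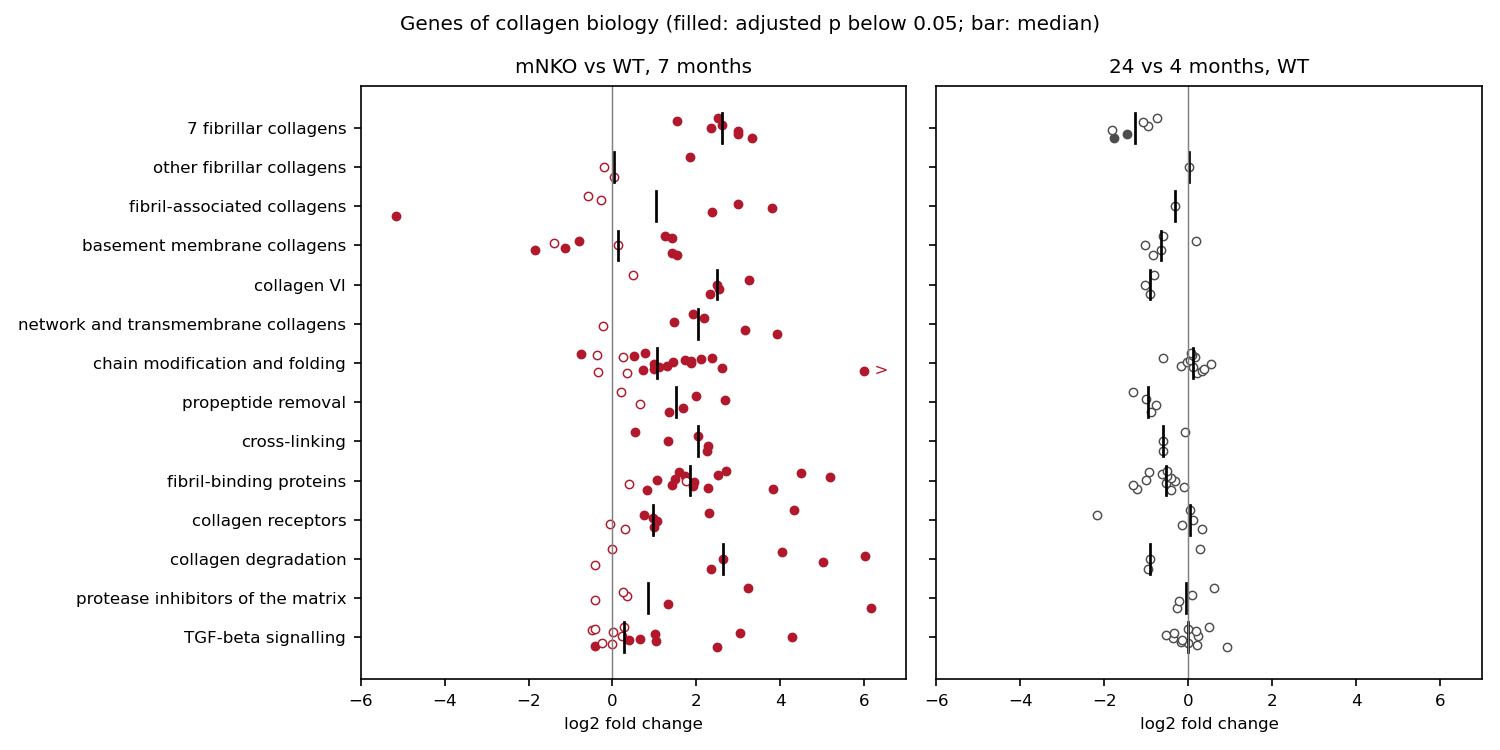
Log2 fold changes of the fibrillar collagens and of the genes of 13 lists of collagen biology, in mNKO against WT at 7 months and in WT at 24 against 4 months (1 point per gene, filled where the edgeR adjusted p is below 0.05, black bar for the median of the list). P4ha3, at 0 counts in WT, is drawn at its bound of 6.00, from plain library totals without TMM, and marked with an arrowhead. In mNKO 76 listed genes rose, and with age in WT only 2 points, those of Col1a1 and Col1a2, are filled.

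Markers of some of the cells that could carry these transcripts differed between the groups. Of all genes tested, 28.6% rose and 24.5% fell in mNKO muscle. In mNKO muscle 8 of 10 markers of fibroblasts and fibro-adipogenic progenitors rose, and their summed level was 2286 to 4106 CPM in mNKO libraries, against 1211 to 1868 CPM in WT libraries. Pdgfra, the receptor that defines those progenitors, rose by 1.54 (SE 0.17, adjusted p = 3.43e-05) and Dcn by 0.83 (SE 0.18, adjusted p = 0.00244, log2 scale, edgeR). Lum, the proteoglycan lumican, rose by 2.28 (SE 0.17, edgeR adjusted p = 5.61e-06, log2 scale). The log2 fold changes of the 10 markers ran from 0.51 to 2.43, beside 1.54 to 3.32 for the 6 collagen genes other than Col11a1. Col5a3 (1.54) and Col5a1 (2.34) lay within the range of the markers. Col5a2 (2.62), Col1a2 (2.98), Col3a1 (2.99) and Col1a1 (3.32) lay above it. Of 5 tenocyte markers 4 were tested and all 4 rose (summed 394 to 723 CPM in mNKO, against 54 to 66.3 CPM in WT), and 7 of 7 macrophage markers rose (668 to 1151 CPM, against 55.1 to 217 CPM). Dcn and Lum are also in the list of fibril-binding proteins. The 8 muscle fibre markers, of which 2 rose and 4 fell, summed to 75979 to 116093 CPM in mNKO, against 165515 to 197461 CPM in WT, and 0 of 5 endothelial markers passed. Smooth muscle and pericyte marker sums overlapped, with 563 to 770 CPM in mNKO, against 548 to 610 CPM in WT.

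Within the mNKO group, the libraries highest in summed fibrillar collagen, replicates 4 and 1 with 4636 and 3415 CPM, were also highest in macrophage markers, with 1066 and 1151 CPM, against 686 and 668 CPM in replicates 2 and 3. They were the lowest in the sum of fibroblast markers, with 2286 and 2581 CPM in replicates 4 and 1, against 3166 and 4106 CPM in replicates 2 and 3. In WT at 7 months replicate 4 was highest in all of these: 546 CPM of fibrillar collagen, 217 CPM of macrophage markers and 1868 CPM of fibroblast markers. In WT at 4 months replicate 3 was highest likewise, with 268 CPM of fibrillar collagen, 170 CPM of macrophage markers and 1066 CPM of fibroblast markers. Abundant markers weigh most in such sums. In WT at 4 months Dcn and Gsn averaged 413 and 478 CPM, beside a mean sum of 952 CPM over the 10 fibroblast markers. In WT at 24 months they averaged 310 and 334 CPM, beside 693 CPM. The sum in those groups speaks mainly for Dcn and Gsn, not for each marker. The part of cell numbers in the collagen changes was not tested.

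With age in WT muscle the fibroblast and progenitor markers summed to 598 to 772 CPM at 24 months, against 882 to 1066 CPM at 4 months, and all 6 tested had values below 0 with 0 passing. Endothelial markers summed to 80.8 to 110 CPM at 24 months, against 112 to 152 CPM at 4 months, with a fall of Cdh5 (-0.71, SE 0.14, edgeR adjusted p = 0.0268), and smooth muscle and pericyte markers to 112 to 154 CPM at 24 months, against 210 to 286 CPM at 4 months, with a fall of Rgs5, a pericyte marker (-0.82, SE 0.14, edgeR adjusted p = 0.0113). Macrophage markers overlapped, with 31.7 to 58 CPM at 24 months, against 47.5 to 170 CPM at 4 months. Of the 6 cartilage and bone markers Bglap was at 0 in every group, and their sum was 7.15 to 26.6 CPM in mNKO, against 0.905 to 2.45 CPM in WT at 7 months. With age in OE muscle endothelial markers summed to 72.1 to 85.8 CPM at 24 months, against 128 to 138 CPM at 4 months, and 2 of 5 fell: Cdh5 (-0.85, SE 0.15, edgeR adjusted p = 0.00698) and Pecam1 (-0.75, SE 0.16, edgeR adjusted p = 0.0236). In OE muscle fibroblast and progenitor markers summed to 311 to 860 CPM at 24 months, against 742 to 1032 CPM at 4 months, and macrophage markers to 25.1 to 60.1 CPM, against 39.9 to 62.8 CPM, with 0 of either list passing. The part of these cells in the age differences was not tested.

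**Figure D5:**
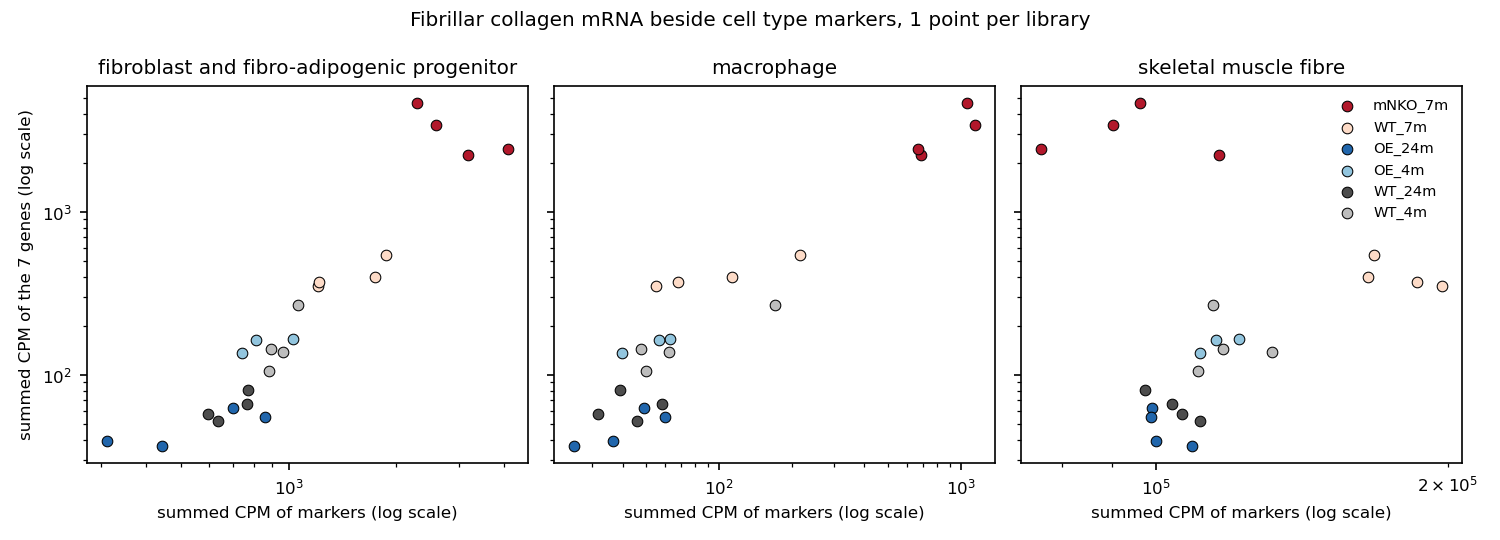
Summed CPM of the 7 fibrillar collagen genes (log axis) against summed CPM of the markers of fibroblasts and fibro-adipogenic progenitors, macrophages and muscle fibres (log axes), 1 point per library, coloured by group. The mNKO libraries lie at 2219 to 4636 CPM of fibrillar collagen and apart from all others in macrophage markers; levels of the 7-month and the 4- and 24-month sets differ in extraction and depth.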

How the data were processed

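Poly(A) RNA of quadriceps muscle was sequenced from 23 libraries in 6 groups, per the labels' protocols. Whole-number read counts per gene were deposited by the authors for each library and were used as deposited. The tools listed, per the submitters' processing notes, were HTSeq, TopHat2, DESeq, DESeq2 and cutadapt 1.4.2, with build mm10; their order and settings are not given in the sources used here. The authors' deposited tables of comparisons hold log2 fold changes, standard errors and p-values, and were printed only where named. They also hold, per the file headers, a mean of normalised counts (an expression signal) and a Wald score; the authors' mean was used to compare depth and the authors' score was not used. The summary lines of the count files, 21.53 to 33.5% of counts at 7 months and 33.58 to 40.02% at 4 and 24 months, were left out.

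Symbols came from the deposited tables for 19905 genes and from the GENCODE annotation for 17990. Counts were fitted with edgeR 4.0.16 (R 4.3.3), using TMM scaling, the default filter on low counts, the robust quasi-likelihood test and Benjamini-Hochberg adjustment at 0.05 over all genes tested. The 7-month and the 4- and 24-month libraries were fitted apart because extraction and depth differ, and together for the direct contrast of Nampt loss with ageing. The standard error is the log2 fold change divided by the square root of F. The scripts were checked on simulated data. Alternatives were DESeq2 1.42.0, limma-voom (limma 3.58.1), other scalings and filters, all libraries in 1 fit, and leaving out each library. Ratios were tested with exact permutation tests in Python 3.11.15. Intervals and floors cover counting error only.

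The named genes were the 7 fibrillar collagens in full, and from each list up to 4 genes with the smallest p in mNKO against WT and up to 4 in WT with age, as room allowed; the genes most like the mean of the collagens were ranked by Pearson r. The members and lists were chosen with earlier results of these data known. Principal transcript lengths were used per kilobase. Labels do not say that libraries come from separate cages or litters, so p-values measure the spread between these libraries.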

Additional observations from a re-analysis of the deposited data

Results flagged for a closer look

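Within groups of 4 libraries, 3 of the 34 groups tested held a library whose gap to its nearest neighbour was large for the range of the group, where chance gives about 1 in 20. Col1a2 had 127 CPM in WT replicate 4 of 7 months, against 73.5 to 82.5 CPM in the other 3 libraries. Col3a1 had 228 CPM in the same library, against 158 to 169 CPM in the others. That library also had the highest macrophage and fibroblast marker sums of its group, 217 and 1868 CPM, and the part of those cells was not tested. Col11a1 had 0.403 CPM in OE replicate 1 of 24 months, which is 1 count, against 0 in the other 3 libraries.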

How the results depend on the processing

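All 7 calls in mNKO muscle, that of Col11a1 resting on a filter passed through mNKO alone, held whichever of the 8 libraries was left out, and so did all 6 calls of the direct contrast with ageing, over 16 libraries. The stricter filter on low counts removed Col11a1 from the mNKO comparison. The ageing calls moved more. In WT muscle the count was 2 as reported, 6 with no filter on low counts, 0 with all 23 libraries in 1 fit, and 1 to 3 when 1 library was left out. In OE muscle it was 3 as reported, 5 with no filter, and 2 to 3 when 1 library was left out. With no filter the edgeR adjusted p of Col3a1 was 1.39e-19 in WT and 1.37e-20 in OE muscle, and the cause was not tested. Over all genes, 14 were called with age in WT by edgeR, against 37 by DESeq2, 8 by limma-voom, 187 with no filter, 0 with all libraries in 1 fit and 2 to 9 when 1 library was left out. In OE 67 were called with age, against 127 by DESeq2, 354 with no filter, and 22 and 11 without OE replicates 1 and 2 of 4 months. With no filter 60 genes were called for OE against WT at 4 months and 130 at 24 months, and 106 for the difference of the ageing effects, against 1, 1 and 0; DESeq2 called 4 at 24 months and 1 for that difference. Values near 0 changed sign. For OE against WT at 4 months Col3a1 had 0.08 by limma-voom and -0.39 to 0.43 when 1 library was left out, and Col5a1 -0.55 to 0.09. The difference of the ageing effects between OE and WT spanned -0.37 to 0.19 for Col1a1, -0.76 to 0.06 for Col3a1, -0.57 to 0.16 for Col5a1 and -0.05 to 0.46 for Col5a2. The log2 ratio of Col1a1 to Col1a2 for OE against WT at 4 months spanned -0.33 to 0.05, and that of Col1a1 to Col3a1 for WT with age -0.30 to 0.11. No paired analysis was possible because each library carries another animal number and no label ties libraries across groups. Counts of 5 to 261 per gene and library limit the ageing comparisons.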
